A study of Homo sapiens with 3 samples.

Results

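The genes described here make cholesterol and fatty acids and belong to the set that sterol regulatory element-binding proteins (SREBPs) drive. They were chosen as a named list of 32 genes, and a gene was measured when at least 1 probe set of the array named it and no other gene. By this rule 30 of the 32 genes were measured, of 18417 genes in all. FDFT1 and HSD17B7 had no probe set of their own and are not analysed here as genes, and STARD4 was measured but was too dim to be tested, which left 29 tested genes.

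The comparison asks which of these genes differ when the SLC45A3-ELK4 transcript is targeted. RNA came from LNCaP cells, an established human cell line from a lymph node metastasis of prostate cancer that carries an androgen receptor, grown in RPMI1640 medium with serum and harvested 72 hours after siRNA transfection with RNAiMAX. Of the 3 arrays, 1 was titled siSE1 and 1 siSE2, both siRNAs directed at this chimeric RNA of 2 adjacent genes on chromosome 1, and 1 carried a negative control siRNA, which the design text calls siGl2. One label of the array titled siSE2, its transfection field, reads siSE1. The array is called siSE2 here, after its title, and if that field is right both arrays repeat 1 siRNA. Nothing in the labels says that the arrays came from separate cultures, and a p-value then measures only how these arrays differ, which may be technical. The spread it uses is that between the siSE1 and siSE2 arrays. If the titles are right, that spread also holds any difference between the siRNAs, and the arrays are not replicates of 1 treatment.

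SREBPs are transcription factors held in the endoplasmic reticulum as precursors by SCAP and INSIG proteins when sterols are plentiful. When sterols fall, SCAP escorts the precursor to the Golgi, proteases free its amino-terminal part, and this part enters the nucleus and raises transcription of the enzymes. SREBF2 encodes the form that acts mostly on cholesterol genes, and SREBF1 the form that acts mostly on fatty acid genes. In LNCaP cells androgens are known to raise many of these enzymes, and serum lipoproteins supply cholesterol from outside.

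Promoter windows are shown for the 3 genes that stood at least 0.32 lower on the log2 scale with both siRNAs (PMVK, ELOVL6 and FADS1), for SREBF2, which held the only match to the SREBP site, and for FDPS and LSS as examples with an NF-Y box. Each window is the RefSeq sequence from 250 bases before to 50 bases after a gene's start, 5′ to 3′ on the gene's strand, in build GRCh38.p14. Capitals mark the Sp1 box (GGGCGG, either strand) in the first 3 windows, the SREBP site (TCACNCCAC) and the NF-Y box (CCAAT, either strand) in SREBF2, and the NF-Y box alone in FDPS and LSS. The first 3 windows were also searched for the NF-Y box and held none. They lie at chr1:154936670-154936969 (minus strand), chr4:110198566-110198865 (minus strand), chr11:61816954-61817253 (minus strand), chr22:41832855-41833154 (plus strand), chr1:155308616-155308915 (plus strand) and chr21:46228725-46229024 (minus strand), in the order printed.
PMVK: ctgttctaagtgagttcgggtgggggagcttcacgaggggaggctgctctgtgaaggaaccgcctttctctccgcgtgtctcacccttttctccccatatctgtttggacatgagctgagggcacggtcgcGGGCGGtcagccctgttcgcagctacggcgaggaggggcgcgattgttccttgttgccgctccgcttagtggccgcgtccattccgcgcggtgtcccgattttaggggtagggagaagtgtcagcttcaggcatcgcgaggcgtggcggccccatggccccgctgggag
ELOVL6: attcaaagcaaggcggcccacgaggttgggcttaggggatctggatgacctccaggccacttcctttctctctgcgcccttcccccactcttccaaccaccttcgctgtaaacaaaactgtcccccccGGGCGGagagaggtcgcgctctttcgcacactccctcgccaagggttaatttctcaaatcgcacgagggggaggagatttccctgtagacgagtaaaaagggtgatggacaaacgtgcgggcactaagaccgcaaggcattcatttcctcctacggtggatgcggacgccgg
FADS1: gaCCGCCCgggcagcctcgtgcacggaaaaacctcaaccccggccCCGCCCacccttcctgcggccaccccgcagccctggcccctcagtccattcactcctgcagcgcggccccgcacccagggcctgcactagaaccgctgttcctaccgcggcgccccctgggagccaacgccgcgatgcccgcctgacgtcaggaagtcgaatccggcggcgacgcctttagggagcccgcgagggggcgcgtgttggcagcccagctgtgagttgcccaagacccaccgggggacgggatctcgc
SREBF2: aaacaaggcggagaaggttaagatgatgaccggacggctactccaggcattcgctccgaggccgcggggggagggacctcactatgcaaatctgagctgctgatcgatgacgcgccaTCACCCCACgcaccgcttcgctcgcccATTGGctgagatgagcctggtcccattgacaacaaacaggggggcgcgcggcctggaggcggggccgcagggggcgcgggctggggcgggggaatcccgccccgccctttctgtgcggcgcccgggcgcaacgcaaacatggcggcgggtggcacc
FDPS: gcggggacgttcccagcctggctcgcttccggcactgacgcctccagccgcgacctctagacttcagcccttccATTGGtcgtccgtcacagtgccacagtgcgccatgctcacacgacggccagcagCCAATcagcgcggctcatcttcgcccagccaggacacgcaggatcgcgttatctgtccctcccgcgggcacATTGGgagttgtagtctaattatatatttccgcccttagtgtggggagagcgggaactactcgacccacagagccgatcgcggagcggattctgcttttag
LSS: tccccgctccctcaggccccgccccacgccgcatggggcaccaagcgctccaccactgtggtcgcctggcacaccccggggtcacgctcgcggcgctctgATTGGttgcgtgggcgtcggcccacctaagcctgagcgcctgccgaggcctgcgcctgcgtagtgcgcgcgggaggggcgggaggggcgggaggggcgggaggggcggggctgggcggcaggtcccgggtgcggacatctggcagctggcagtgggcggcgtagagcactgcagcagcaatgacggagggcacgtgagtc

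The deposited table held 33297 probe sets, with array medians (log2 signal) of 5.84 with siSE1, 5.84 with siSE2 and 5.80 with the control siRNA. Neither parent gene of the chimera passed the test. SLC45A3 read 9.14 with siSE1 and 9.27 with siSE2, against 9.66 with the control siRNA (log2 signal; limma, adjusted p = 0.154), and ELK4 read 8.45 and 8.20, against 8.50 (limma, adjusted p = 0.582). These probe sets report the parent genes and do not resolve the junction of the chimera, and the knockdown is not checked by them. Of 8 luminal prostate markers 5 were measured, all above the level needed for testing, between 9.40 and 10.7 on the siRNA arrays and between 9.51 and 10.2 on the control array. They differed from the control in both directions, by as much as the lowest lipid synthesis genes: the keratin genes KRT8 and KRT18 by 0.43 ± 0.14 and 0.42 ± 0.15 (SE; log2), and KLK3, the gene of prostate-specific antigen, by -0.39 ± 0.14, each on 1 side with both siRNAs and none passing (limma, adjusted p = 0.173, 0.189 and 0.205). HOXB13 and KLK2 differed by 0.12 and -0.27. Basal, stromal, blood, and adipocyte or hepatocyte markers passed that level in 1 of 3, 4 of 6, 2 of 4 and 2 of 5 measured genes. The summed log2 signal of the 4 blood markers was 18.7 and 17.9 on the siRNA arrays, against 16.8 on the control array. Among them LYZ, the gene of lysozyme, read 6.09 with siSE1 and 5.11 with siSE2, against 4.41 with the control siRNA. PTPRC, the common leukocyte antigen gene, read 3.22 and 3.18 on the siRNA arrays and 3.17 on the control array, below the level needed for testing. The part of these markers in the results below was not tested.

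As a group the lipid synthesis genes stood slightly lower on the siRNA arrays, and no single one passed the test. Both siRNA arrays lay below the control array for 22 of the 29 tested genes, beside 41.7% of all 12892 genes tested, and both lay above it for 2, beside 36.4%. With quantile normalization the count below was smaller, 16 of the 29, beside 39.2% of all genes tested. In bulk RNA such a difference cannot be told apart from a change in the share of cells that express the genes. The median difference of the 29 genes, siRNA mean minus control, was -0.18 on the log2 scale (1.13-fold lower), beside -0.019 over all genes tested. It was -0.20 with siSE1 (all genes -0.023) and -0.17 with siSE2 (all genes -0.013). By limma, 0 of the 29 genes had an adjusted p under 0.05, beside 0.714% of all genes called lower and 0.248% called higher. At an unadjusted p under 0.05, 6 genes were lower, beside 11.3% of all genes, and 0 were higher, beside 6.46%. The 95% intervals of the 29 differences ran from -0.91 at the lowest bound to 0.49 at the highest, so no interval reached 2-fold in either direction. The fit had 1 residual degree of freedom, from siSE1 against siSE2, and it assumes that the lone control array varies as they do.

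**Figure D1:**
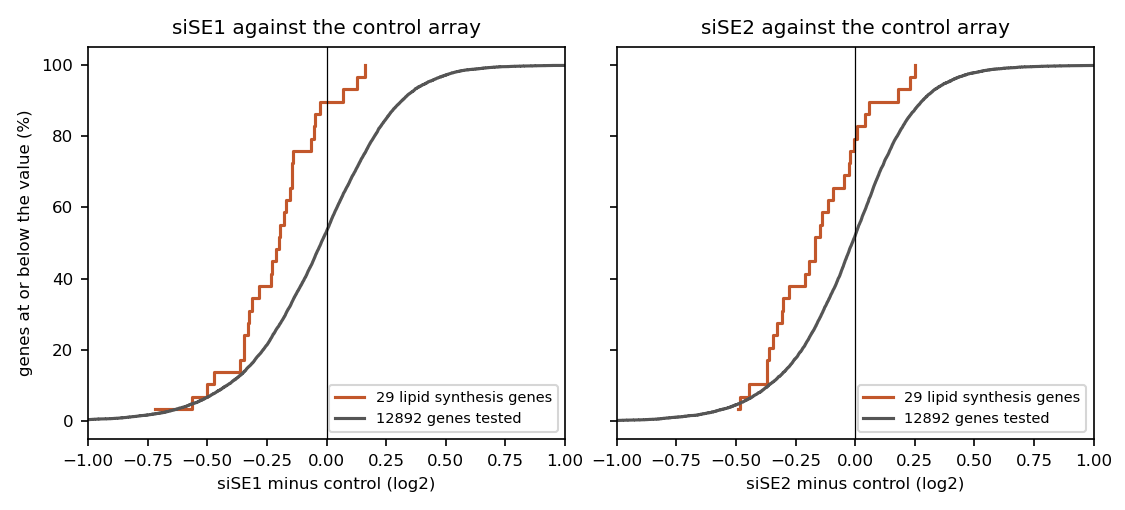
Cumulative share of genes (vertical axis, %) at or below each difference from the control array (horizontal axis, log2), for the 29 lipid synthesis genes and for all 12892 genes tested, with siSE1 on the left and siSE2 on the right. The lipid synthesis genes lie left of all genes over most of the range, with medians of -0.20 with siSE1 and -0.17 with siSE2. Their lowest points are ELOVL5 at -0.72 with siSE1 and ELOVL6 at -0.49 with siSE2. Means of both siRNAs are not drawn: the lowest was -0.46 for the lipid synthesis genes and -1.85 for all genes.

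Differences were small: 3 of the 29 genes (PMVK, ELOVL6 and FADS1) were lower by at least 0.32 on the log2 scale with both siRNAs, beside 8.02% of all genes tested, and 0 were higher by as much with both, beside 4.27%. The count of 3 depended on the processing. It was 6 with equal array medians, where the median over all genes also fell, from -0.019 to -0.059. It was 1 of 27 once genes under the 50th percentile of mean signal were left out, because PMVK and ELOVL6 were among those. The shares of all genes at these 2 settings are not given here. No gene was at least 1.5-fold lower with both, beside 1.53%. A single siRNA gave more: 9 genes were at least 0.32 lower with siSE1, beside 15.5% of all genes, and 8 with siSE2, beside 12.4%. None was higher by that much with siSE1, beside 9.66%, or with siSE2, beside 7.62%. Counted by side alone, 26 of the 29 lay below the control array with siSE1, beside 53.2%, and 23 with siSE2, beside 52.0%. Both comparisons use the same control array, so a low or high reading on that array would move both.

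**Figure D2:**
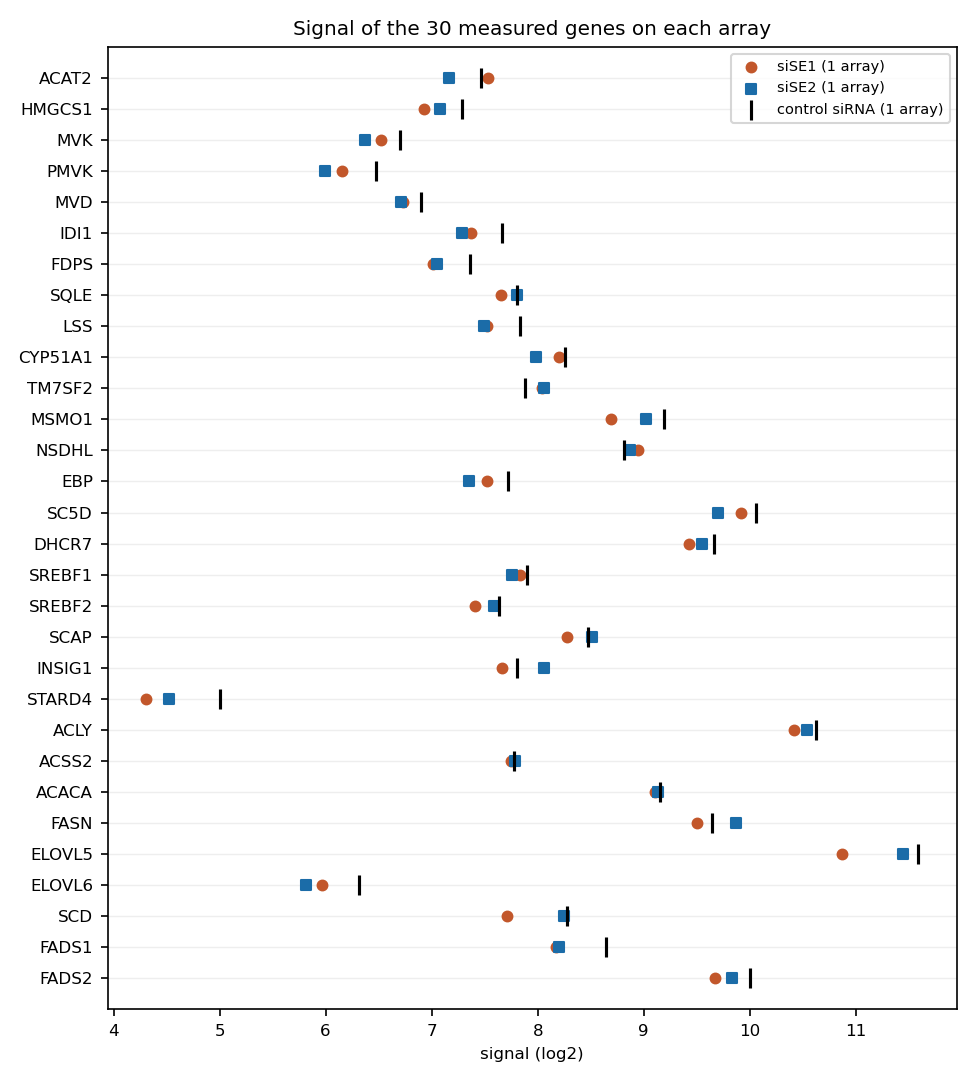
Log2 signal (horizontal axis) of the 30 measured lipid synthesis genes on each of the 3 arrays, siSE1 (circles), siSE2 (squares) and control siRNA (vertical bars), ordered by role. The control bar lies right of both siRNA points for most genes, and TM7SF2 and NSDHL are the tested genes for which it lies left of both. Positions on the axis are comparable within a gene, not between genes.

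The mevalonate pathway, which builds squalene from acetyl-CoA, had 7 measured genes, with a median difference of -0.29 (log2). All 7 measured genes were lower with siSE2, beside 52.0% of all genes tested, and 6 with siSE1, beside 53.2%. PMVK, the phosphomevalonate kinase, read 6.15 with siSE1 and 6.0 with siSE2, against 6.48 with the control siRNA (log2 signal). Its difference of -0.40 ± 0.15 (SE, n = 2 against 1), or 1.32-fold lower, did not pass (limma, adjusted p = 0.199). IDI1, the isopentenyl diphosphate isomerase, read 7.38 and 7.29 on the siRNA arrays and 7.66 on the control array, a difference of -0.33 ± 0.14. FDPS, the farnesyl diphosphate synthase, read 7.01 and 7.05 with the siRNAs, against 7.36 with the control, also -0.33 ± 0.14. In these 3 genes the unadjusted 95% interval left out 0, and the siRNA arrays lay closer to each other than to the control. HMGCS1, which makes HMG-CoA, read 6.93 and 7.08 on the siRNA arrays, against 7.29 on the control array (-0.29 ± 0.15). MVK, the mevalonate kinase, read 6.52 and 6.37, against 6.70 (-0.25 ± 0.15), and MVD, the diphosphomevalonate decarboxylase, 6.73 and 6.71, against 6.90 (-0.18 ± 0.14). ACAT2, a thiolase that condenses acetyl-CoA, was split: it read 7.54 with siSE1 and 7.16 with siSE2, on either side of 7.47 with the control siRNA.

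FDPS has near-identical pseudogene copies, so its signal could be shared. A pair of further probe sets named FDPS together with its pseudogene FDPSP2 and were left out of the gene's value. They read 5.95 and 6.16 with siSE1 and 5.90 and 6.05 with siSE2, against 6.10 and 6.35 with the control siRNA. Both siRNA arrays lay below the control array on each, with mean differences of -0.18 and -0.25 (log2).

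From squalene to cholesterol, 7 of the 9 tested genes lay below the control array with both siRNAs, beside 41.7% of all genes tested. The other 2 lay above it, beside 36.4%, and the median difference of the 9 was -0.17 (log2). LSS, the lanosterol synthase that closes the sterol rings, read 7.52 with siSE1 and 7.49 with siSE2, against 7.84 with the control siRNA, a difference of -0.33 ± 0.14 (SE; limma, unadjusted p = 0.0438, adjusted p = 0.266). MSMO1, a sterol C4 methyl oxidase, read 8.69 and 9.02 on the siRNA arrays and 9.19 on the control array, so that most of its difference of -0.33 ± 0.17 came with siSE1. EBP, a sterol isomerase, read 7.52 and 7.35, against 7.72 with the control (-0.29 ± 0.15). SC5D, the sterol C5 desaturase, read 9.92 and 9.70, against 10.06 (-0.25 ± 0.15). For both of these genes the siSE2 array was the lower one. DHCR7, which reduces 7-dehydrocholesterol to cholesterol, read 9.43 and 9.55 with the siRNAs and 9.66 with the control (-0.17 ± 0.14).

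At other steps of sterol ring processing, SQLE, the squalene epoxidase, read 7.65 with siSE1 and 7.80 with siSE2, against 7.81 with the control siRNA, so its siSE2 reading was close to the control. CYP51A1, the lanosterol demethylase, had a pair of probe sets, and their mean was 8.20 and 7.98 on the siRNA arrays, against 8.26 on the control array. The probe sets differed with siSE2, where one read 7.35, against 7.78 with the control (a difference of -0.43), and the other 8.61, against 8.73 (-0.13). TM7SF2, a sterol C14 reductase, read 8.04 and 8.05 with the siRNAs and 7.88 with the control, a difference of 0.17 ± 0.14 (limma, adjusted p = 0.562). NSDHL, a sterol C4 decarboxylase, read 8.94 and 8.87, against 8.81 (0.092 ± 0.14; limma, adjusted p = 0.777). Both intervals held 0. These last 2 genes are the only tested members above the control array with both siRNAs as deposited. HSD17B7, which works beside NSDHL, shared its probe set with the pseudogene HSD17B7P2, and that probe set read 5.92 with siSE1 and 6.18 with siSE2, on either side of 6.06 with the control siRNA.

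The 4 SREBP genes and their controllers all lay below the control array with siSE1, beside 53.2% of all genes tested. Their median difference was -0.17 (log2) with siSE1, while with siSE2 the median was -0.0033 and 2 lay below, beside 52.0%. SREBF1 read 7.83 with siSE1 and 7.76 with siSE2, against 7.90 with the control siRNA, a difference of -0.10 with a 95% interval from -0.42 to 0.22. SREBF2 read 7.41 and 7.59 on the siRNA arrays, against 7.64 on the control array, a difference of -0.14 with an interval from -0.47 to 0.20. SCAP, the escort protein gene, read 8.28 and 8.52, against 8.47, and was split between the siRNAs. INSIG1, which retains SCAP and is itself an SREBP target, was also split, at 7.66 with siSE1 and 8.06 with siSE2, against 7.81 with the control. Of these 4 genes 0 passed by limma, also at an unadjusted p under 0.05, and their median difference was -0.089 (log2). The intervals do not show that the 4 genes were the same in both conditions. STARD4, a sterol carrier inside the cell and an SREBP target, was dim: it read 4.31 with siSE1 and 4.52 with siSE2, against 5.0 with the control siRNA, below the test's lower limit of 5.12 for a gene's mean. Its differences from the control were -0.70 with siSE1 and -0.48 with siSE2 (log2).

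Acetyl-CoA supply and the fatty acid synthesis enzymes had a median difference of -0.022 (log2), and 0 of the 4 genes passed by limma, also at an unadjusted p under 0.05. ACLY, the citrate lyase that makes cytosolic acetyl-CoA, read 10.42 with siSE1 and 10.54 with siSE2, against 10.63 with the control siRNA (-0.15 ± 0.14, SE). ACSS2, which makes acetyl-CoA from acetate, read 7.75 and 7.79 on the siRNA arrays and 7.78 on the control array. ACACA, the acetyl-CoA carboxylase that commits carbon to fatty acids, read 9.11 and 9.13, against 9.15. For ACSS2 and ACACA the direction was not settled: their differences of -0.0091 and -0.035 (log2) became 0.032 and 0.00094 with cyclic loess, and ACSS2 became 0.055 with quantile normalization. FASN, the fatty acid synthase, read 9.50 with siSE1 and 9.87 with siSE2, on either side of 9.64 with the control. The mean difference of FASN was 0.043 with a 95% interval from -0.35 to 0.44.

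Elongation and desaturation genes, which lengthen fatty acids and insert double bonds, had the lowest median difference of the roles. All 5 were lower with both siRNAs, beside 41.7% of all genes tested. Their median difference was -0.42 (log2), and -0.47 with siSE1 and -0.17 with siSE2. FADS1, the delta-5 desaturase, read 8.17 with siSE1 and 8.20 with siSE2, against 8.65 with the control siRNA. This difference of -0.46 ± 0.14 (1.37-fold lower) had a 95% interval from -0.78 to -0.14 and the smallest p of the 29 genes (limma, unadjusted p = 0.00935, adjusted p = 0.141). Even so, 6.15% of all genes tested had a lower difference than FADS1. FADS2, its neighbour on chromosome 11 and the delta-6 desaturase, read 9.67 and 9.83 on the siRNA arrays and 10.00 on the control array (-0.25 ± 0.15). ELOVL6, which elongates saturated fatty acids, read 5.97 and 5.82, against 6.31, a difference of -0.42 ± 0.15 (limma, unadjusted p = 0.0181, adjusted p = 0.187).

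In ELOVL5 and SCD the difference came mostly with siSE1. ELOVL5, which elongates polyunsaturated fatty acids, read 10.87 with siSE1 and 11.44 with siSE2, against 11.59 with the control siRNA, that is 1.65-fold lower with siSE1 and 1.11-fold lower with siSE2. SCD, the stearoyl-CoA desaturase, read 7.71 with siSE1, against 8.28 with the control siRNA, while its 8.25 with siSE2 was close to the control. Their mean differences of -0.43 ± 0.21 and -0.30 ± 0.21 (SE) had intervals that held 0.

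**Figure D3:**
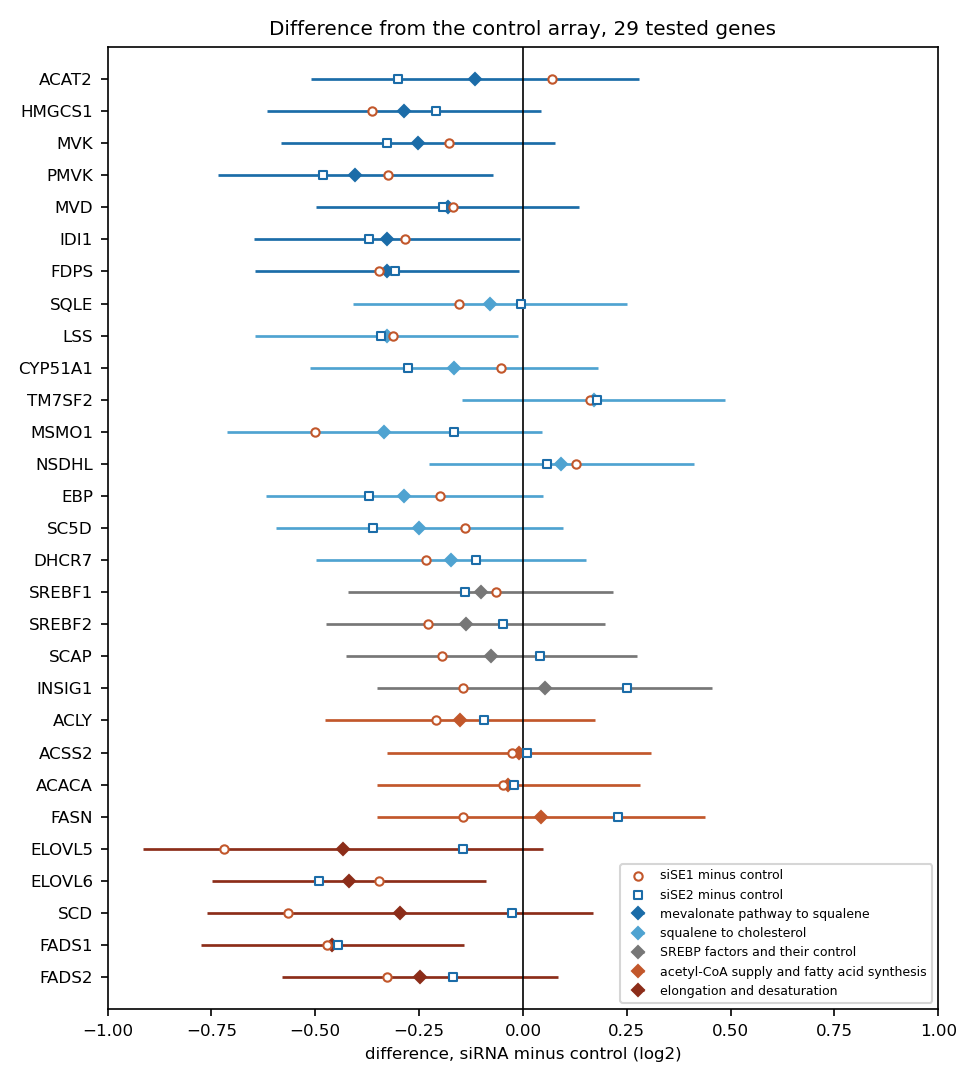
Difference from the control array (horizontal axis, log2) of the 29 tested genes in role order: diamonds are the mean of both siRNAs with the 95% interval of the limma fit as bars, and open circles and squares are siSE1 and siSE2 alone. The bars of PMVK, IDI1, FDPS, LSS, ELOVL6 and FADS1 end left of 0, and the other 23 cross it.

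Readings with the siRNAs also differed from each other. The siSE1 and siSE2 arrays were at least 0.32 apart (log2) for 6 of the 29 genes (ACAT2, MSMO1, INSIG1, FASN, ELOVL5 and SCD), beside 10.4% of all genes tested. The median distance between the siRNA arrays was 0.15 for the 29 genes and 0.12 for all genes tested (log2). Among the fatty acid enzymes siSE1 gave the lower reading for 8 of 9 genes, beside 51.0% of all genes, with ELOVL6 as the exception. Among the 16 sterol synthesis enzymes siSE1 gave the lower reading for 6 and siSE2 for 10. The siRNA arrays lay on opposite sides of the control array for 5 of the 29 genes, beside 21.7% of all genes: ACAT2, SCAP, INSIG1, ACSS2 and FASN. With 1 array each, the difference between the siRNAs was not tested.

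Other genes of lipid metabolism were split evenly around the control array. Of 56 further genes in 5 lists, 50 were measured and 44 tested. Both siRNA arrays lay below the control array for 18 of the 44, beside 41.7% of all genes tested. They lay above it for 18, beside 36.4%, and the median difference of the 44 genes was -0.023 (log2). By limma 0 of the 44 passed, while at an unadjusted p under 0.05 4 were lower, beside 11.3% of all genes tested, and 2 higher, beside 6.46%. Among the 6 tested genes of sterol sensing and SREBP processing, ERLIN1, an endoplasmic reticulum protein that takes part in sterol control, read 7.14 with siSE1 and 7.78 with siSE2, against 8.24 with the control siRNA. ERLIN1 had the largest difference of the 44, at -0.78 ± 0.23 (limma, adjusted p = 0.127). MBTPS1, the protease that first cuts SREBPs, differed by -0.24 ± 0.14, and RNF139, a ubiquitin ligase, by 0.27 ± 0.14. Of 5 other isoprenoid and sterol genes 4 lay below the control with both siRNAs, beside 41.7% of all genes tested. Among the 4 were COQ2, GGPS1 and DHDDS, of coenzyme Q, geranylgeranyl and dolichol synthesis, at -0.33, -0.21 and -0.19.

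Of 11 tested sterol transport and storage genes 6 lay above the control array with both siRNAs, beside 36.4% of all genes tested, and 3 below, beside 41.7%, with a median of 0.074 (log2). None passed by limma, and 1 was lower at an unadjusted p under 0.05, beside 11.3% of all genes tested. MYLIP, a ubiquitin ligase that lowers lipoprotein receptors, read 7.47 with siSE1 and 7.73 with siSE2, against 7.26 with the control siRNA (0.34 ± 0.16). NCEH1, a cholesterol ester hydrolase, differed by 0.22 ± 0.14, while NPC2, a lysosomal cholesterol carrier, differed by -0.40 ± 0.16. Of 7 glycerolipid synthesis genes 5 lay above the control with both siRNAs, beside 36.4% of all genes tested, with a median of 0.079. None passed by limma, and 2 were higher at an unadjusted p under 0.05, beside 6.46% of all genes tested. Neither lean was tested as a list. DGAT2, which makes triglycerides, read 8.32 and 8.27 on the siRNA arrays and 7.90 on the control array, a difference of 0.39 ± 0.14 (limma, unadjusted p = 0.0205, adjusted p = 0.194). AGPAT2 and DGAT1, enzymes of the same pathway, differed by 0.39 ± 0.16 and 0.29 ± 0.14. The 15 tested genes of fatty acid supply, elongation and activation were mixed. With both siRNAs 5 lay below the control and 4 above, beside 41.7% and 36.4% of all genes tested. In that list ELOVL7, another elongase, read 10.07 and 10.23, against 10.65 (-0.50 ± 0.15), OXSM, of mitochondrial fatty acid synthesis, differed by -0.46 ± 0.14, and ACACB, the mitochondrial acetyl-CoA carboxylase, by -0.31 ± 0.14.

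**Figure D4:**
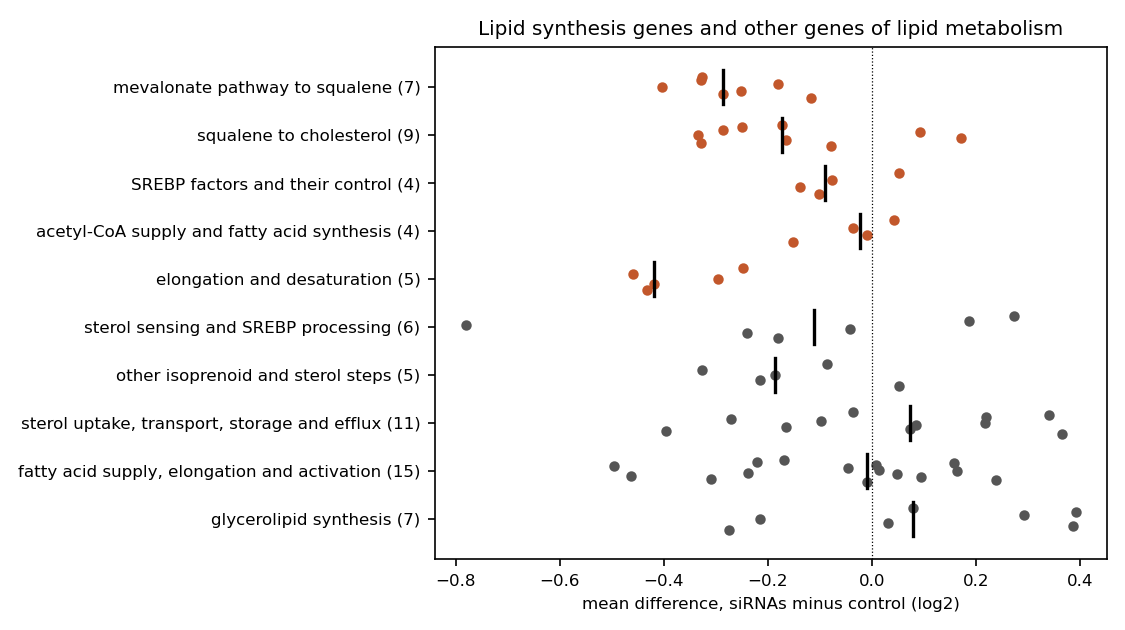
Mean difference of the siRNAs from the control array (horizontal axis, log2) for each tested gene, with list medians as black bars; the upper 5 rows are the lipid synthesis genes by role and the lower 5 rows are other genes of lipid metabolism, with the number of tested genes in brackets. Elongation and desaturation has the lowest median, -0.42, and glycerolipid synthesis the highest, 0.079.

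Promoter windows were found in the RefSeq table for 28 of the 32 genes, 26 of them tested. A gene can have several windows and was counted for a motif when any of them matched. Shares of all windows count each window by itself, so the like comparison is with the tested genes. The NF-Y box, which SREBP targets often carry close to their SREBP site, was found in 20 of the 26 (76.9%), against 42.2% of 10244 tested genes with a window and 34.6% of all 35116 windows. The Sp1 box was found in 24 of 26 (92.3%), against 75.8% of the tested genes and 45.0% of all windows. The windows of the lipid synthesis genes had a median GC content of 67.8%, against 64.7% for tested genes and 58.7% for all windows. The SREBP site in its strict form was found in SREBF2 alone, at position -133 from the start, against 1.43% of tested genes and 1.13% of all windows. An E-box (CACGTG), which SREBPs can also bind, was found in 5 of 26, against 12.5% of tested genes and 7.26% of all windows. The ETS site (CCGGAAG), the kind of motif that ELK4 binds, was found in ACSS2, CYP51A1, FDPS and IDI1, or 15.4% of the 26 genes, against 20.9% of tested genes and 10.3% of all windows. All motifs were searched on both strands, and none of these letter patterns holds another in full.

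Differences are given by motif as a description. The 20 tested genes with an NF-Y box had a median difference of -0.25 (log2). The 6 without one were split, with none near their median of -0.28: PMVK, ELOVL6 and FADS1, printed above, lay between -0.46 and -0.40, and CYP51A1, SREBF1 and SCAP between -0.17 and -0.076. FDPS had 3 such boxes and LSS had 1. The medians with and without a match were -0.25 and -0.25 for the ETS site, -0.25 and -0.25 for the E-box, and -0.25 and -0.17 for the Sp1 box, which only 2 of the 26 genes lacked. Those 2 were ELOVL5 at -0.43 and NSDHL at 0.092, so their median is near neither. SREBF2, alone with the SREBP site, differed by -0.14, and the other 25 genes had a median of -0.25. A match is a description of letters in a window and no evidence of binding.

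**Figure D5:**
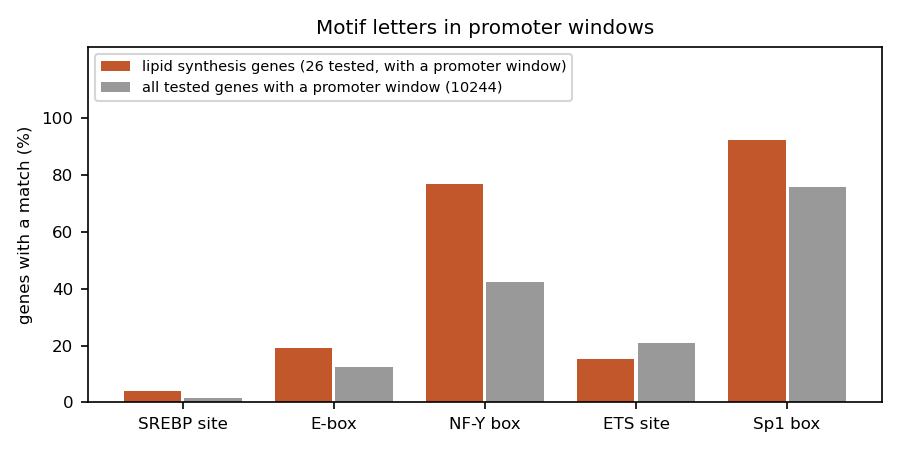
Share of genes (vertical axis, %) with at least 1 match to each motif in their promoter windows, for 26 tested lipid synthesis genes (left bars) and 10244 tested genes (right bars). The NF-Y box has the widest gap, 76.9% against 42.2%. The ETS site is found in 4 of the 26 genes (15.4%), near the 20.9% of tested genes.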

How the data were processed

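Biotin-labelled target from total RNA was hybridised to 3 Affymetrix arrays. The authors deposited log2 values per probe set, and per the submitters' processing notes Affymetrix Expression Console was used, version and algorithm unstated. The log2 scale was taken from the range of the values (1.43 to 13.9). The sources used here do not give the background correction or the genome build.

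The platform annotation named 1 gene for 19460 probe sets, several for 1754 and none for 12083. Probe sets of a gene were averaged into 18417 genes, and the 5525 below the 30th percentile of the mean over arrays (log2 5.12) were left out. The siRNA arrays (n = 2) were compared with the control array (n = 1) by limma 3.58.1 in R 4.3.3, two-sided, with Benjamini-Hochberg adjustment over 12892 genes and a threshold of 0.05. On simulated data with changes of 1 and 2 (log2) the fit recovered the changed genes. It also made more false calls than its threshold allows, so counts of calls may be too high. Changes as small as those of the lipid synthesis genes (FADS1 the lowest, at -0.46) were not simulated, so their recovery was not tested. SE are the fit's moderated standard errors, and the number of arrays limits the precision. Alternatives covered normalization, filter, probe set choice, variance prior, threshold and single siRNAs.

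The members, lists and tests were chosen with earlier results of these data known. All members are named, and from each other list up to 3 tested genes, ranked by the smaller of the changes with siSE1 and siSE2 where both had 1 direction. The markers KRT8, KRT18, KLK3, HOXB13, KLK2, PTPRC, CD14, CD3E and LYZ were named after their values were seen. Motifs were counted in RefSeq promoter windows (GRCh38.p14).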

Additional observations from a re-analysis of the deposited data

How the results depend on the processing

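No paired analysis was possible because the control group has 1 array and its label carries no replicate number. No lipid synthesis gene passed under any of 8 alternative fits (limma, lowest adjusted p = 0.121), and at an unadjusted p under 0.05 there were 6 lower. Genes below the control array with both siRNAs numbered 16 of 29 with quantile normalization, beside 39.2% of all genes tested. The count was 19 of 29 with cyclic loess, beside 41.2%, and 23 of 29 with equal array medians, beside 48.5%. It was 20 of 27 with the 50th percentile filter, beside 47.8%, and 23 of 30 with no filter, beside 36.3%. Of the 29 genes, 23 lay below the control array with siSE2 alone, beside 52.0%, and 26 with siSE1 alone, beside 53.2%. The rest of the 29 lay above it, 6 with siSE2 alone and 3 with siSE1 alone. The count at least 0.32 lower (log2) with both siRNAs was 6 of 29 with equal array medians. It was 1 of 27 with a 50th percentile filter, which leaves out dimmer genes, PMVK and ELOVL6 among them. The shares of all genes at these 2 settings are not given here. It was 8 with siSE2 alone, beside 12.4% of all genes tested, and 9 with siSE1 alone, beside 15.5%. The median difference was -0.15 with quantile normalization (all genes -0.0042) and -0.22 with equal array medians (all genes -0.059). It was -0.21 with no filter, which adds STARD4 (all genes 0.012), and -0.20 to -0.17 with single siRNAs. Over all genes, calls numbered 124, but 189 with quantile normalization, 35 with a 50th percentile filter and 1 with no filter. The signs of ACSS2 (0.055 with quantile normalization, 0.032 with cyclic loess) and ACACA (0.00094 with cyclic loess) turned. The cause was not tested.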
